A study of Mus musculus with 4 samples.

Results

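Nacc2, its paralogue Nacc1 and 8 subunits of the nucleosome remodelling and deacetylase (NuRD) complex were followed across the cell classes and treatments of a single-cell RNA-seq study of the mouse dentate gyrus. The subunits were Hdac1, Hdac2, Chd4, Mta1, Mta2, Mta3, Rbbp4 and Mbd3. The 10 genes were taken by name from a table of 31557 gene symbols, and all 10 had counts. They were read in 716 of 768 sorted wells, those with 500 to 6000 detected genes, and the mouse was the replicate in every comparison.

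The series title names NACC2 as an effector of the microRNA miR-132, and the design asks what blocking that microRNA changes in sorted cells. The antagomir group held 4 male nestin-GFP mice infused into the brain ventricle at 2 months of age with 2 µl of Ant-132 (0.33 nmol/ml, dissolved in an artificial cerebrospinal fluid), and analysed at 3 months. Ant-132 is a cholesterol-modified locked nucleic acid oligonucleotide against miR-132. The Scr group held 4 male nestin-GFP mice, also infused at 2 months of age. They received a scrambled locked nucleic acid oligonucleotide in the same fluid, at a dose and analysis age not given in the sources used here. Every mouse carried the nestin-GFP reporter, in which nestin regulatory sequence drives the fluorescent protein, so all cells compared here passed the same gate. Infusion into the ventricle does not restrict the oligonucleotide to 1 cell type.

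NuRD joins histone deacetylation to nucleosome remodelling, and DNA-bound factors bring it to the genes they silence. Nacc2 encodes a BTB and BEN domain protein, and human NACC2 is known to recruit NuRD to the MDM2 gene, whose product drives degradation of p53. In the nervous system NuRD is known for closing down genes of earlier stages as progenitors differentiate.

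The microRNA sequences and the matching sites in the member genes are shown because the contrast between antagomir and Scr bears on them. miR-132 and its cluster neighbour miR-212 share the seed, bases 2 to 8 counted from the 5′ end, which is in capitals (RefSeq, GRCm38.p6; chr11:75173723-75173744 and chr11:75173443-75173464, plus strand).
mmu-miR-132-3p: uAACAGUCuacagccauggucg
mmu-miR-212-3p: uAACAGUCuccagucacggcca
The longest annotated 3′ untranslated region of each gene was searched on the transcribed strand for the 8mer GACTGTTA and the 7mers GACTGTT and ACTGTTA, both of which lie inside the 8mer (GENCODE M21, GRCm38). The 4427-base region of Nacc2 held 2 copies of the 8mer, at chr2:26055960-26055967 and chr2:26055757-26055764 on the minus strand, 3995 and 4198 bases into the region. The region of Hdac2, of 2153 bases, held the 7mer ACTGTTA once, at chr10:36995406-36995412 on the plus strand. The matches are in capitals.
Nacc2, first site: tcataattcatGACTGTTAggaattaagtt
Nacc2, second site: cgtagtgacaaGACTGTTActttgtagcca
Hdac2: aggagctatatACTGTTAgtgttctcttt
The other 8 genes held 0 of these motifs in that window. Of 17511 genes with such a region (median 1260 bases), 19.9% held at least 1 of the motifs, 2.72% held an 8mer, and 15 genes (0.0857%) held at least 2 8mers. A match describes the sequence only; the mature microRNAs are not among the transcripts that oligo-dT primed libraries count here.

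The 716 wells held between 4118 and 1640971 counts each (median 650777), and summed counts per mouse ran from 43996495 to 69191485 over 84 to 93 wells. Clusters were named from marker genes. They gave 301 oligodendrocyte-like, 155 radial glia-like (RGL) or astrocyte-like, 87 endothelial-like, 84 mural-like (pericyte and smooth muscle markers), 36 neuroblast-like, 12 fibroblast-like and 5 oligodendrocyte precursor-like wells, with 36 wells of low gene number left unnamed. RGL and astrocytes were not separated. The largest oligodendrocyte-like cluster, of 137 wells, came to 92.0% from sequencing pool L6 (mice 3, 4, 7 and 8), whereas the other oligodendrocyte-like clusters held 12.8% and 25.6% wells of that pool. Neuroblast-like sums rest on 5 mice, and endothelial-like sums on 7, because the remaining mice gave fewer than 5 such wells. Median counts per well were 830052 in the oligodendrocyte-like class and between 521570.5 and 599721 in the other 4 classes, so comparisons of the share of wells with a count were repeated at 200000 counts per well.

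Nacc2, the BTB and BEN domain repressor, was a gene of the glial classes. Its transcripts reached a mean of 140.7 ± 46.2 CPM (counts scaled to a total of 1000000 per sum) in oligodendrocyte-like sums and 149.0 ± 47.6 CPM in RGL or astrocyte-like sums (SD, n = 8 mice each), against 24.6 ± 34.1 CPM in endothelial-like sums (n = 7) and 37.5 ± 78.9 CPM in mural-like sums (n = 8). In the oligodendrocyte-like class the antagomir mice 2, 4, 6 and 8 had 144.8, 66.3, 185.3 and 79.2 CPM, against 194.3, 167.6, 148.0 and 139.8 CPM in the Scr mice 1, 3, 5 and 7. In the RGL or astrocyte-like class the antagomir mice had 177.6, 93.5, 115.1 and 235.0 CPM, against 125.3, 171.3, 105.2 and 169.2 CPM in the Scr mice. Every mouse thus had Nacc2 in both glial classes, with treatment groups that overlapped in each.

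The vascular values were uneven. In mural-like sums the antagomir mice 2, 4 and 6 had 7.1, 5.2 and 225.8 CPM and mouse 8 had 0, against 61.7 CPM in Scr mouse 1 and 0 in the Scr mice 3, 5 and 7. In endothelial-like sums the antagomir mice 2 and 6 had 9.9 and 86.1 CPM and mice 4 and 8 had 0, against 18.1 and 57.8 CPM in Scr mice 1 and 3 and 0 in Scr mouse 5. A mouse at 0 contributed only 5 to 12 wells here, which allows a share of wells with a count of up to 25 to 60.0%.

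In the class fit (edgeR quasi-likelihood test on sums per mouse and class, Benjamini-Hochberg adjustment over 13702 genes), Nacc2 was higher in the glial than in the vascular classes by 4.92 on the log2 scale (SE 1.46, 95% interval 1.94 to 7.89, adjusted p = 0.0096). This contrast called 33.1% of all genes, 26.5% as higher and 6.59% as lower in glia, and the median gene was itself 1.57 higher, so Nacc2 stood 3.35 above the median gene. The call held under all 18 alternatives of processing, with differences between 3.32 and 6.09. Between the glial classes, oligodendrocyte-like minus RGL or astrocyte-like, the interval for Nacc2 ran from -3.08 to 2.64 (adjusted p = 0.976), and Nacc2 was higher in the oligodendrocyte-like sum in 3 of 8 mice, which leaves differences of several-fold either way unresolved.

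The share of wells with a Nacc2 count gave the same order. It was 56.9 ± 11.5% of oligodendrocyte-like and 58.5 ± 8.39% of RGL or astrocyte-like wells, against 9.34 ± 11.6% of endothelial-like and 10.8 ± 12.8% of mural-like wells (mean and SD over mice). By exact sign flips over mice, adjusted over the 11256 genes counted in at least 5% of wells, the oligodendrocyte-like share exceeded the mural-like share by 46.2 percentage points in 8 of 8 mice (p = 0.00781, adjusted p = 0.0256). It exceeded the endothelial-like share by 47.1 points in 7 of 7 mice (exact p = 0.0156, adjusted p = 0.0453). The RGL or astrocyte-like share exceeded the mural-like share by 47.7 points in 8 of 8 mice (exact p = 0.00781, adjusted p = 0.0361) and the endothelial-like share by 49.2 points in 7 of 7 mice (exact p = 0.0156, adjusted p = 0.060). These p-values are the smallest that 8 or 7 mice can give, so adjusted values track how many other genes reached them. By level, the same tests missed the threshold for Nacc2 in all 4 glial against vascular pairs (adjusted p between 0.065 and 0.073), although glia were higher in 7 of 7 or 7 of 8 mice. They called 0 of 11256 genes between oligodendrocyte-like and endothelial-like sums and in both pairs with RGL or astrocyte-like sums, so there the miss is not particular to Nacc2. Between oligodendrocyte-like and mural-like sums they called 17.4% of genes.

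With each well thinned to 200000 counts, the glial shares of Nacc2 remained higher in all mice compared, but adjusted p then lay between 0.051 and 0.069. Wells that held Nacc2 held it at depth. Over the 292 wells with a count the median was 117 counts, and 4.45% of them held 1 to 4 counts. The median level within such wells was 205.9 CPM in 173 oligodendrocyte-like wells, 155.6 CPM in 89 RGL or astrocyte-like wells, 295.9 CPM in 9 endothelial-like wells and 181.7 CPM in 11 mural-like wells. The few vascular wells with a count thus held levels in the range of the glial wells with one.

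Within the oligodendrocyte-like class Nacc2 was found in every cluster. It was counted in 54.0% of wells of the cluster that came mostly from pool L6, and in 58.1% and 62.8% of wells of the other 2 clusters, with 113.1, 173.7 and 154.5 CPM. In the RGL or astrocyte-like class it was counted in 58.3% of wells of the larger and 52.2% of wells of the smaller cluster. The rarest classes gave 3 of 5 oligodendrocyte precursor-like wells, 6 of 36 unnamed wells and 0 of 12 fibroblast-like wells with Nacc2, the last of which allows a share of up to 25%.

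**Figure D1:**
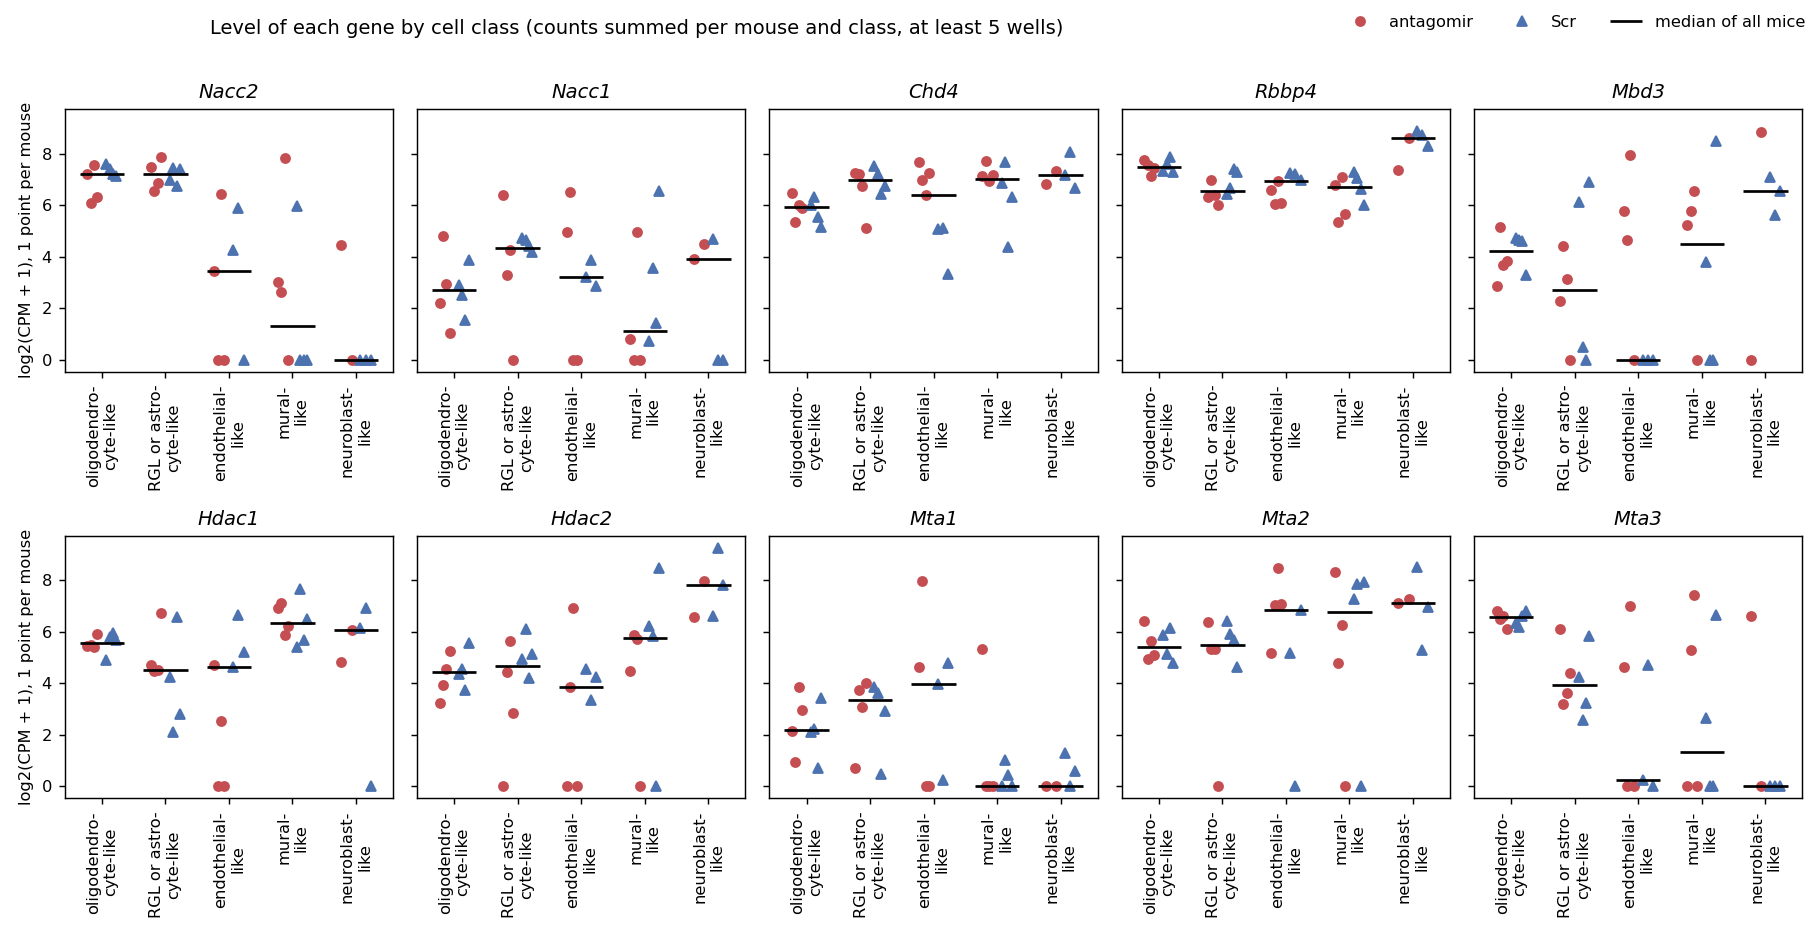
Level of each gene as log2(CPM + 1) in every mouse (y axis) by cell class (x axis), with red circles for antagomir mice, blue triangles for Scr mice and a black line at the median. Nacc2 is near or above 66.3 CPM in all glial sums and at 0 in 4 of the 5 neuroblast-like sums, while Rbbp4 and Hdac2 are high in the neuroblast-like sums.

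Nacc2 was almost absent from the neuroblast-like wells. A single well of 36 held it, with 75 counts, from antagomir mouse 2. That gave 20.8 CPM in antagomir mouse 2 and 0 in antagomir mouse 6 and in the Scr mice 1, 3 and 5. The mean was 4.15 ± 9.28 CPM in neuroblast-like sums (n = 5), against the glial means given above. The same well was the only one of the 36 with Mta3, at 349 counts. Of its 609501 counts, 460 fell on neuroblast markers, 34 on RGL or astrocyte markers and 3 on oligodendrocyte markers.

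In the class fit Nacc2 was lower in neuroblast-like than in glial sums (edgeR, adjusted p = 0.0383), in a contrast that called 9.17% of genes, 6.47% as lower. Its fitted difference of -8.54 (SE 2.65) depends on the prior count because 4 of 5 mice were at 0, and it is no measure of the fold. The call was lost without Scr mouse 1 (adjusted p = 0.101), 3 (0.0745) or 5 (0.114) or antagomir mouse 4 (0.0501) or 6 (0.0927). It was also lost with no limit on detected genes per well (adjusted p = 0.116). With coarser clustering the difference was -2.01 (adjusted p = 0.466), in a neuroblast-like class that then held 64 wells in place of 36. The RGL or astrocyte-like class then held 132 wells in place of 155, and no class was named oligodendrocyte precursor-like. That fit thus compared a different set of wells. RGL or astrocyte markers summed to between 1000 and 2138 CPM in the neuroblast-like sums and to between 29613 and 37193 CPM in the RGL or astrocyte-like class. Their part in the result was not tested.

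Nacc1, the paralogue of Nacc2 with the same BTB and BEN domains, was low throughout. Its mean lay between 8.13 ± 8.54 CPM in oligodendrocyte-like sums and 24.5 ± 24.8 CPM in RGL or astrocyte-like sums, and it was counted in 83 of 716 wells against 292 for Nacc2. Divided by exon length, Nacc2 reached 18.0 CPM per kb and Nacc1 1.9 CPM per kb in oligodendrocyte-like sums, and 19.1 and 5.7 CPM per kb in RGL or astrocyte-like sums. Nacc2 thus made up 89.6 ± 13.6% of the pair's level per length in oligodendrocyte-like sums and 78.6 ± 13.04% in RGL or astrocyte-like sums. In endothelial-like and mural-like sums its share was 40.0 ± 41.3% and 51.7 ± 48.9%, a spread too wide to place either paralogue first. In neuroblast-like sums it was 15.1 ± 26.1%, with both paralogues at or below 2.8 CPM per kb.

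Rbbp4, a histone-binding WD40 protein shared by NuRD with other chromatin complexes, was the most widely counted of the 10 genes, in 409 of 716 wells. It was highest in neuroblast-like sums, at 350.4 ± 118.8 CPM (n = 5), followed by oligodendrocyte-like sums at 180.9 ± 30.02 CPM (n = 8). RGL or astrocyte-like, endothelial-like and mural-like sums lay together at 107.4 ± 38.0, 109.7 ± 34.97 and 97.3 ± 42.7 CPM, within 1 SD of each other.

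In oligodendrocyte-like sums the antagomir mice 2, 4, 6 and 8 had 213.7, 185.4, 139.4 and 173.1 CPM of Rbbp4, against 160.2, 190.1, 229.1 and 156.5 CPM in the Scr mice 1, 3, 5 and 7. In RGL or astrocyte-like sums the antagomir mice had 79.2, 126.1, 82.8 and 62.6 CPM, against 84.8, 101.5, 166.7 and 155.2 CPM in the Scr mice. In each of the 8 mice the oligodendrocyte-like value was the higher one. The difference in log2(CPM + 1) between these classes was 0.81 (exact sign flips, p = 0.00781, adjusted p = 0.0314), in a comparison that called 24.9% of 11256 genes. The oligodendrocyte-like level also exceeded the mural-like level, by 1.02 in 8 of 8 mice (adjusted p = 0.0448, with 17.4% of genes called).

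The edgeR fit gave 0.89 for Rbbp4 between oligodendrocyte-like and RGL or astrocyte-like sums, with a 95% interval of 0.02 to 1.77, and this missed the threshold over all genes (adjusted p = 0.183). Rbbp4 was called higher in the glial than in the vascular classes by 1.04 (SE 0.32, adjusted p = 0.0126), but the median gene differed by more, so that Rbbp4 stood 0.53 below it. On mean log2(CPM + 1) of wells, tested with limma, it stood 0.84 above the median gene, so its place relative to other genes turned with the scale. The edgeR call was lost with the size factors of DESeq2 (0.73, adjusted p = 0.0645), with no filter on genes (adjusted p = 0.245) and with at least 10 cells in a sum (0.57, adjusted p = 0.226). It was also lost without antagomir mouse 4 (0.69, adjusted p = 0.137) or without Scr mouse 5 (0.98, adjusted p = 0.0548) or 7 (0.78, adjusted p = 0.0737).

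By share of wells, Rbbp4 was counted in 81.8 ± 14.4% of neuroblast-like and 77.6 ± 9.01% of oligodendrocyte-like wells, and in 43.3 ± 10.9% of RGL or astrocyte-like, 40.3 ± 8.07% of endothelial-like and 34.96 ± 11.5% of mural-like wells. The oligodendrocyte-like share exceeded the RGL or astrocyte-like share by 34.3 points in 8 of 8 mice (exact sign flips, adjusted p = 0.0273). At 200000 counts per well this gap was 37.3 points (adjusted p = 0.030). In neuroblast-like sums antagomir mice 2 and 6 had 164.3 and 383.9 CPM of Rbbp4, against 472.7, 416.9 and 314.1 CPM in Scr mice 1, 3 and 5. The edgeR difference between neuroblast-like and glial sums was 0.13 (adjusted p = 0.956), which was 1.14 above the median gene of that contrast, and its sign turned (-0.09) without Scr mouse 1. On mean log2(CPM + 1) of wells, limma called Rbbp4 higher in neuroblast-like wells (2.10, adjusted p = 0.00023).

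The 3 metastasis-associated proteins Mta1, Mta2 and Mta3 are alternative scaffolds that hold the deacetylases in NuRD, and their shares of the family's level were not the same in every class. Mta3 had the highest level per length of the 3 in oligodendrocyte-like sums, at 17.0 CPM per kb. Before division by length it had 90.6 ± 15.9 CPM there, against 24.3 ± 23.9 CPM in RGL or astrocyte-like sums. In the oligodendrocyte-like class the antagomir mice 2, 4, 6 and 8 had 110.0, 89.9, 96.0 and 68.0 CPM of Mta3, against 80.7, 72.7, 97.3 and 110.2 CPM in the Scr mice 1, 3, 5 and 7. In the RGL or astrocyte-like class the antagomir mice had 68.0, 8.3, 11.2 and 20.1 CPM, against 17.9, 5.0, 8.5 and 55.8 CPM in the Scr mice.

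The lowest oligodendrocyte-like value of Mta3 and its highest RGL or astrocyte-like value were both 68.0 CPM, but within each of the 8 mice the oligodendrocyte-like value was higher. The difference in log2(CPM + 1) was 2.34 (exact sign flips, p = 0.00781, adjusted p = 0.0314), and the share of wells with a count was higher by 29.4 points (42.2 ± 8.45% against 12.8 ± 5.07%, adjusted p = 0.0273). After thinning the gap was 26.2 points (adjusted p = 0.030). By edgeR the difference was 2.68 (SE 1.63, adjusted p = 0.346), which missed the threshold. Mta3 was counted in 48.2% of wells of the oligodendrocyte-like cluster from pool L6 and in 36.0% and 38.5% of wells of the other clusters.

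Per length, Mta3 made up 56.8 ± 8.07% of the family's level in oligodendrocyte-like sums, with the 8 mice between 48.5 and 69.3%, and 24.2 ± 19.5% in RGL or astrocyte-like sums. Mta2 held 37.5 ± 9.66% of it in oligodendrocyte-like sums, 57.5 ± 28.4% among RGL or astrocyte-like sums and 92.7 ± 15.7% among neuroblast-like sums. The level of Mta2 was 163 ± 121 CPM in neuroblast-like sums (n = 5), against 48.1 ± 21.2 CPM in oligodendrocyte-like and 47.2 ± 28.4 CPM in RGL or astrocyte-like sums (n = 8 each). The neuroblast-like values were 135.8 and 153.1 CPM in antagomir mice 2 and 6, against 364.1, 38.5 and 125.1 CPM in Scr mice 1, 3 and 5, so that 1 mouse lay below both glial means. Mta2 was counted in 52.3 ± 13.5% of neuroblast-like wells, against 23.5% of oligodendrocyte-like and 20.2% of RGL or astrocyte-like wells.

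Mta1 was the scarcest of the 10 genes in neuroblast-like sums, at 0.40 ± 0.65 CPM, which was 0.211% of its family per length. These sums leave out the mice with fewer than 5 such wells. Over all 36 neuroblast-like wells Mta1 was counted in 6 (16.7%), with a median of 61.1 CPM in those 6. It was counted in 7.31% of all oligodendrocyte-like and 15.5% of all RGL or astrocyte-like wells, so the low sum does not show absence from the class. In oligodendrocyte-like sums it had 5.28 ± 4.51 CPM, against 8.35 ± 5.61 CPM in RGL or astrocyte-like sums. Its share of wells was lower in the oligodendrocyte-like class by 8.55 points in 8 of 8 mice (exact sign flips, adjusted p = 0.0273). Its endothelial-like mean of 44.8 ± 90.5 CPM came mostly from 1 well of antagomir mouse 4, whose sum reached 248.4 CPM.

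**Figure D2:**
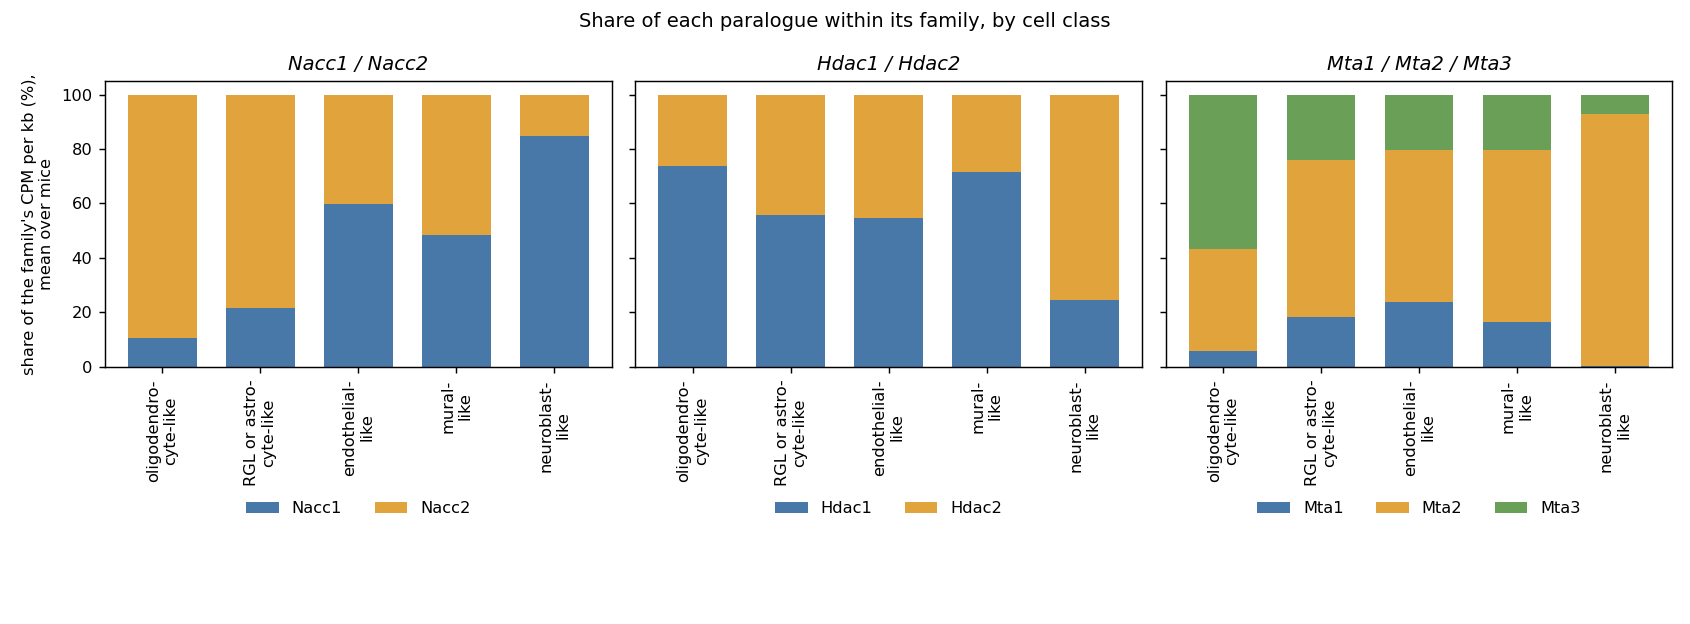
Share of each paralogue family's level per exon length (y axis, percent, mean over mice) by cell class (x axis), as stacked bars for the pairs Nacc1 and Nacc2, Hdac1 and Hdac2, and for Mta1, Mta2 and Mta3. Nacc2 fills most of its bar in both glial classes, Mta3 holds 56.8% in the oligodendrocyte-like class, and Mta2 and Hdac2 hold 92.7% and 75.7% in the neuroblast-like class.

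Hdac1 and Hdac2 are the interchangeable catalytic deacetylases of NuRD. Hdac2 averaged 254.7 ± 212 CPM in neuroblast-like sums (n = 5), against 22.9 ± 12.9 CPM in oligodendrocyte-like and 28.2 ± 22.4 CPM in RGL or astrocyte-like sums (n = 8 each). In the neuroblast-like class antagomir mice 2 and 6 had 94.1 and 248.4 CPM, against 95.9, 611.5 and 223.8 CPM in Scr mice 1, 3 and 5. Each of the 5 values lay above both glial means.

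Hdac2 was counted in 60.8 ± 14.6% of neuroblast-like wells and in 14.3% of oligodendrocyte-like and 15.04% of RGL or astrocyte-like wells. The edgeR difference between neuroblast-like and glial sums was 2.56 (SE 1.20, adjusted p = 0.194), short of the threshold. The Wald test of DESeq2 called it (2.79, adjusted p = 0.0352), and so did limma on mean log2(CPM + 1) of wells (3.94). Per length, Hdac2 made up 75.7 ± 17.4% of the deacetylase pair in neuroblast-like sums, against 26.1 ± 10.1% in oligodendrocyte-like sums and 44.2 ± 35.6% in RGL or astrocyte-like sums.

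Hdac1 was the more even of the pair, at 47.7 ± 10.8 CPM in oligodendrocyte-like, 36.8 ± 39.5 CPM in RGL or astrocyte-like and 56.5 ± 45.6 CPM in neuroblast-like sums. Endothelial-like sums had 27.0 ± 34.8 CPM (n = 7), against 96.4 ± 53.6 CPM in mural-like sums (n = 8). The edgeR difference between these vascular classes was -2.17 (SE 1.20, adjusted p = 0.300). Limma called it on mean log2(CPM + 1) of wells (-1.25), as did DESeq2 (-2.25). By share of wells Hdac1 was higher in the oligodendrocyte-like than in the endothelial-like class by 17.3 points in 7 of 7 mice (exact sign flips, adjusted p = 0.0453). At 200000 counts per well the gap was 15.7 points, again in 7 of 7 mice (exact sign flips, p = 0.0156, the smallest that 7 mice can give). Adjusted p was then 0.052, so the call was lost through the adjustment over all genes.

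Chd4, the ATPase that moves nucleosomes in NuRD, was present in all 5 classes. Its mean was 154.6 ± 64.4 CPM in neuroblast-like, 127.9 ± 61.2 CPM in mural-like, 119.2 ± 46.5 CPM in RGL or astrocyte-like, 90.9 ± 70.9 CPM in endothelial-like and 58.6 ± 18.3 CPM in oligodendrocyte-like sums. Neighbours in that order differed by less than the larger of their SDs. In oligodendrocyte-like sums the antagomir mice 2, 4, 6 and 8 had 86.5, 39.8, 63.2 and 57.5 CPM, against 63.4, 78.8, 44.9 and 34.9 CPM in the Scr mice 1, 3, 5 and 7.

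In RGL or astrocyte-like sums the antagomir mice had 149.8, 146.8, 105.1 and 33.8 CPM of Chd4, against 182.1, 144.8, 86.1 and 105.05 CPM in the Scr mice. Antagomir mouse 8 was the only mouse with more in its oligodendrocyte-like sum. Chd4 was counted in a share of oligodendrocyte-like wells that was 19.6 points lower than that of RGL or astrocyte-like wells, in 7 of 8 mice (46.6 ± 9.90% against 66.1 ± 14.9%, exact sign flips, adjusted p = 0.043). At 200000 counts per well the gap was -23.0 points (adjusted p = 0.030). The edgeR difference in level was -0.92 (SE 0.54, adjusted p = 0.326), while DESeq2 (-1.14, adjusted p = 0.0441) and limma on mean log2(CPM + 1) of wells (-1.58, adjusted p = 0.00614) called Chd4 lower. The share of RGL or astrocyte-like wells also exceeded that of mural-like wells by 23.9 points in 8 of 8 mice (adjusted p = 0.0361), a call lost at 200000 counts per well, where 7 mice could be compared (26.8 points, adjusted p = 0.069). In neuroblast-like wells the share was 85.8 ± 16.4%. The neuroblast-like minus glial difference in level was -0.07 by edgeR (adjusted p = 1.00) and turned to 0.18 with the size factors of DESeq2, and to 2.34 by limma, which called it, so no direction is given.

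Mbd3, the methyl-CpG-binding-domain subunit, was counted in only 64 of 716 wells. Its means had SDs of about their own size or more outside the oligodendrocyte-like class, from 18.4 ± 9.92 CPM there to 147 ± 181 CPM in neuroblast-like sums. It was counted in 32.6% of neuroblast-like wells, against 6.81% of oligodendrocyte-like and 10.5% of RGL or astrocyte-like wells. Between the glial classes the fitted difference had the opposite sign to that of the means. It was 4.16 by edgeR (adjusted p = 0.306) and 4.18 by DESeq2, which called Mbd3 higher in oligodendrocyte-like sums (adjusted p = 0.0189). The RGL or astrocyte-like values were 3.81, 20.5, 7.72 and 0 CPM in the antagomir mice 2, 4, 6 and 8, against 69.2, 0.40, 0 and 119.1 CPM in the Scr mice 1, 3, 5 and 7, so that the mean of 27.6 CPM came mostly from 2 mice. In oligodendrocyte-like sums the 8 mice lay between 6.24 and 34.9 CPM. Its length is the shortest of the 10, at 1987 exon bases, so that per length it reached 74.0 CPM per kb in neuroblast-like sums, against 9.3 CPM per kb in oligodendrocyte-like and 13.9 CPM per kb in RGL or astrocyte-like sums.

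**Figure D3:**
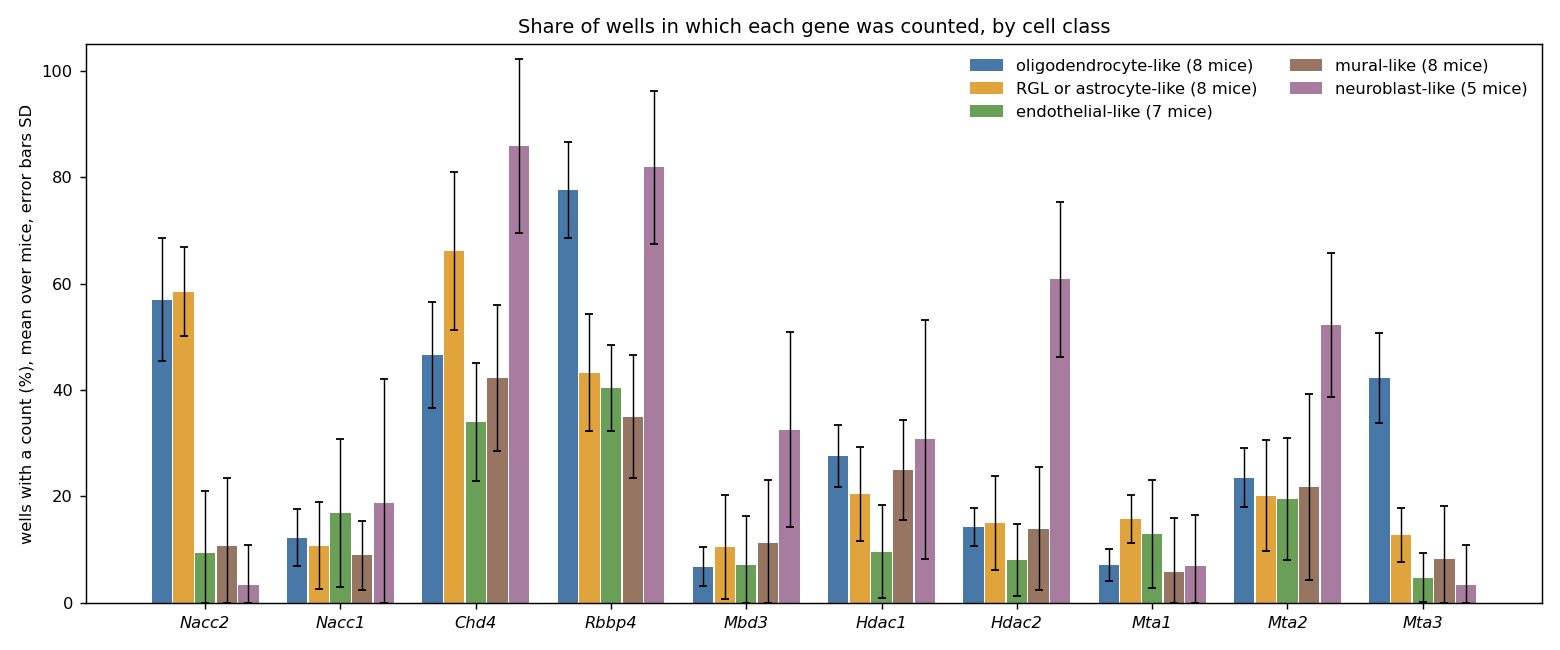
Percent of wells with at least 1 count (y axis) for each of the 10 genes (x axis) in 5 cell classes, with bars at the mean over mice and error bars of 1 SD. Nacc2 and Mta3 are highest in glial classes, and Hdac2, Mta2, Chd4 and Mbd3 in the neuroblast-like class.

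Counted over the list, edgeR called 0 of the 10 genes between oligodendrocyte-like and RGL or astrocyte-like sums, where 17.2% of all genes were called. At an unadjusted p under 0.05 it had 1 of the 10, beside 25.2% of genes. DESeq2 called 2 (23.8% of genes), and limma, whose filter left 7 of the 10 to test, called 3 (41.4%). Between glial and vascular classes it called 2 of 10 as higher and 0 as lower, beside 26.5% and 6.59% of all genes. The 8 others differed by -0.88 to 2.83. DESeq2 called 3 (46.7% of genes) and limma 4 (63.6%). Between endothelial-like and mural-like sums it called 0 of 10, with 10.1% of genes called, and also 0 at an unadjusted p under 0.05 (21.5% of genes). The 10 differences ran from -2.17 to 4.37. DESeq2 called 2 there (28.3%) and limma 1 (19.8%). Between neuroblast-like and glial sums it called 1 of 10, as lower, beside 6.47% of genes called lower. DESeq2 called 4 there (25% of genes in either direction), Hdac2 as higher and Nacc2, Mta1 and Mta3 as lower. Limma called 6 of the 7 it tested (48.8% of genes), with Hdac2, Chd4, Mta2 and Rbbp4 higher and Nacc2 and Mta3 lower. The median difference over the 10 genes was 0.43, 0.97, -0.12 and -0.31 on the log2 scale in these 4 contrasts, beside -0.05, 1.57, -0.03 and -1.01 over all genes.

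By share of wells, the exact tests called 4 of the 10 genes between oligodendrocyte-like and RGL or astrocyte-like wells (36.3% of all genes), 4 between oligodendrocyte-like and endothelial-like wells (34.5%), 3 between oligodendrocyte-like and mural-like wells (39.2%) and 2 between RGL or astrocyte-like and mural-like wells (21.7%). These shares are near the background. At 200000 counts per well the 4 calls between oligodendrocyte-like and RGL or astrocyte-like wells remained, and the other 9 of the 13 were lost, with adjusted p between 0.051 and 0.069 over 7 mice a pair. Each of the 9 still had the smallest exact p that sign flips over 7 mice can give (0.0156). Between RGL or astrocyte-like and endothelial-like wells, and between endothelial-like and mural-like wells, 0 genes of any kind were called. By level the same tests called 3 differences in all, 2 between oligodendrocyte-like and RGL or astrocyte-like sums (24.9% of all genes) and 1 between oligodendrocyte-like and mural-like sums (17.4%). In the other pairs they called 0 genes of any kind.

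Per well, the number of the 8 NuRD subunits with a count averaged 3.54 ± 0.51 in neuroblast-like wells (5 mice), against 2.46 ± 0.27 in oligodendrocyte-like wells and 2.04 ± 0.37 in RGL or astrocyte-like wells (8 mice each). Endothelial-like wells had 1.36 ± 0.16 and mural-like wells 1.63 ± 0.54. At 200000 counts per well the means were 3.47, 2.37, 2.00, 1.42 and 1.68. That repeat evens counts and not detected genes. Median detected genes were 3281 in the neuroblast-like cluster, 2905.5 to 3030 in oligodendrocyte-like clusters and 2803 and 3312 in RGL or astrocyte-like clusters. They were 2003 in the endothelial-like cluster and 1932 and 2041 in the mural-like clusters. The part of gene detection in the number of subunits was not tested. Of 716 wells, 87 (12.2%) held a count of none of the 8, and 12 (1.68%) held at least 1 of each of the 5 kinds of subunit (deacetylase, Mta protein, Chd4, Rbbp4 and Mbd3). In the neuroblast-like class 6 of 36 wells did (16.7%).

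Some of the other genes were counted more often in wells with Nacc2, which were also deeper (median 719044 counts, against 596539 in wells without Nacc2). Mta3 was counted in 32.9% of wells with Nacc2 and 16.5% of wells without, higher in 8 of 8 mice. Within the oligodendrocyte-like class the same comparison gave 44.5% and 39.1%, higher in 6 of 8 mice. In the RGL or astrocyte-like class Chd4 was counted in 74.2% of wells with Nacc2 and 56.1% of wells without, higher in 7 of 8 mice. Depth did not differ the same way everywhere: median counts in wells with and without Nacc2 were 833113 and 819812.5 in the oligodendrocyte-like class, and 580648 and 626771.5 in the RGL or astrocyte-like class. At 200000 counts per well Mta3 was counted in 33.1% of all wells with Nacc2 and 15.8% of wells without, higher in 8 of 8 mice. Within the oligodendrocyte-like class that depth gave 43.2% and 35.7%, higher in 6 of 8 mice. Of wells with Nacc2, 173 of 292 were oligodendrocyte-like, against 128 of 424 wells without. Some genes went the other way as deposited. Mbd3 had 4.62% and 9.38% in oligodendrocyte-like wells, and Hdac2 13.5% and 18.2% in RGL or astrocyte-like wells. These shares are descriptions without a comparison over all genes, and the part of class make-up was not tested.

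Across the 36 sums per mouse and class, and 7724 genes with a mean of at least 20 CPM, the genes whose log2(CPM + 1) most resembled that of Nacc2 were D10Jhu81e, Ank and Kirrel3 (Pearson r = 0.83 each), Pex16 (0.81) and Ttyh1 (0.79). The sums share mice, depth and cell classes, so r mostly records the pattern over classes. Ttyh1, a membrane protein, had 101.03 CPM in oligodendrocyte-like and 1241 CPM in RGL or astrocyte-like sums, and Ank, a transporter of pyrophosphate, 327.1 and 69.1 CPM. Among the 10 genes, Mta3 had Nacc2 as its second most similar gene (r = 0.76, after Gss at 0.76). For Rbbp4 the first gene was Synpr (r = 0.79).

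The other genes of the pathway came from lists chosen with earlier results of these data known. Of 8 further NuRD subunits, 7 were tested in the class fit. Chd3, a remodelling ATPase that can replace Chd4, was called lower in oligodendrocyte-like than in RGL or astrocyte-like sums (0.03 against 11.2 CPM, adjusted p = 0.00182), with 0 called higher. Gatad2b, a zinc finger subunit, was called higher in glial than in vascular classes, with 14.4 and 23.8 CPM in oligodendrocyte-like and RGL or astrocyte-like sums against 16.6 CPM in endothelial-like and 0.2 CPM in mural-like sums. Mbd2, the alternative to Mbd3, was called lower in neuroblast-like than in glial sums, at 0 in all 5 mice, against 2.11 CPM in oligodendrocyte-like and 7.17 CPM in RGL or astrocyte-like sums. In each of the 4 contrasts 1 of the 7 was called, beside 17.2%, 33.1%, 10.1% and 9.17% of all genes, in the order above. The median of the 7 was -0.51, 0.45, 0.75 and -0.20 on the log2 scale in these contrasts, beside the medians over all genes already given.

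Of 14 factors known to recruit NuRD, 11 were tested, and 5 were called higher in glial than in vascular classes and 0 lower (list median 1.90, beside 1.57 over all genes). That contrast called 26.5% of all genes higher and 6.59% lower. Sall1, a zinc finger repressor, had 35.1 and 45.2 CPM in oligodendrocyte-like and RGL or astrocyte-like sums, against 0 CPM in endothelial-like and 19.3 CPM in mural-like sums. Bcl11a, a zinc finger factor, was called higher in neuroblast-like sums (110.4 CPM) than in glial sums (0.10 CPM in oligodendrocyte-like and 4.79 CPM in RGL or astrocyte-like sums; adjusted p = 0.0148). Bcl6, a BTB repressor, was called lower there (12.7 against 79.6 and 133.4 CPM, adjusted p = 0.0419). Between oligodendrocyte-like and RGL or astrocyte-like sums 0 were higher and 2 lower, Zfpm2 and Bcl11a, where 17.2% of all genes were called. The list median was -0.32 there and -1.004 in the neuroblast-like contrast, where 9.17% of all genes were called. Between endothelial-like and mural-like sums it was -0.68, with 2 lower and 10.1% of all genes called. With genes at 0 throughout a class set to the limit of 3 counts, the -0.68 became -0.39.

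The Sin3, CoREST and MIER complexes also use Hdac1 and Hdac2. Of 14 such genes tested, 2 were called higher in glial than in vascular classes, Sap30 and Mier2, beside 26.5% of all genes. Mier2 had 17.7 and 14.5 CPM in oligodendrocyte-like and RGL or astrocyte-like sums, against 0.01 CPM in endothelial-like but 68.4 CPM in mural-like sums. The other 3 contrasts called 0 of the 14 genes, and the list medians were 0.04, 1.17, 0.19 and -0.79. Of 6 genes of the NCoR and HDAC3 complex, a corepressor apart from NuRD, 0 were called in any of the 4 contrasts. These called 9.17% to 33.1% of all genes. The medians of the 6 were -0.64, 0.34, 0.53 and -0.13.

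In the p53 and MDM2 axis, where human NACC2 is known to act, 14 genes were tested. Phlda3, a p53 target that restrains Akt, was called higher in oligodendrocyte-like sums (239.0 CPM) than in RGL or astrocyte-like sums (7.10 CPM; adjusted p = 0.0101), and Sesn1, a stress-induced p53 target, lower (24.5 against 183.2 CPM, adjusted p = 0.00872). Cdkn1a, the cell-cycle inhibitor p21, was called lower in glial sums (16.2 CPM in oligodendrocyte-like and 12.3 CPM in RGL or astrocyte-like) than in vascular sums (2248 CPM in endothelial-like and 51.3 CPM in mural-like; adjusted p = 0.0103). Counts of higher and lower calls were 2 and 1, 2 and 2, 1 and 0, and 0 and 2 in the 4 contrasts. Over all genes 17.2%, 33.1%, 10.1% and 9.17% were called there in either direction. The list medians were -0.15, -0.02, 0.62 and -0.48. With genes at 0 throughout a class set to the limit of 3 counts, the first and last medians were 0.07 and -0.42. Mdm2 itself was not called in any of them, at 79.5 CPM in oligodendrocyte-like and 33.3 CPM in RGL or astrocyte-like sums. Trp53 had 409.8 CPM in neuroblast-like sums, against 24.3 and 69.0 CPM in oligodendrocyte-like and RGL or astrocyte-like sums, and was not called.

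Antagomir and Scr mice did not differ detectably in Nacc2. Over all kept wells of a mouse, the antagomir mice 2, 4, 6 and 8 had 105.8, 70.2, 153.6 and 88.8 CPM, against 111.9, 129.1, 97.9 and 135.3 CPM in the Scr mice 1, 3, 5 and 7. The means were 104.6 ± 35.7 CPM in antagomir mice and 118.6 ± 16.9 CPM in Scr mice (SD, n = 4 each). Antagomir mice held both the lowest and the highest value. The edgeR difference, antagomir minus Scr, was -0.21 on the log2 scale (SE 0.26, 95% interval -0.79 to 0.37, unadjusted p = 0.438, adjusted p = 1.00). The direction was not the same in both sequencing pools, with 0.25 in pool L5 and -0.73 in pool L6. The share of wells with Nacc2 was 38.5 ± 6.07% in antagomir mice and 43.0 ± 5.32% in Scr mice (exact permutation test over mice, two-sided, p = 0.314).

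Of the 10 genes 0 were called between antagomir and Scr mice over all wells, in oligodendrocyte-like wells or in RGL or astrocyte-like wells. In these 3 comparisons edgeR called 0 of 15447, 0 of 10786 and 0 of 10726 genes (0% each), with 280, 210 and 137 genes (1.81%, 1.95% and 1.28%), and 0 of the 10, at an unadjusted p under 0.05. DESeq2 called 10, 14 and 7 genes (0.0657%, 0.131% and 0.0664%) and limma 0, with none of the 10 among them. The median difference over the 10 genes was 0.08, -0.04 and -0.04, beside 0.00, -0.01 and -0.02 over all genes. The 10 differences ran from -0.50 to 1.06 over all wells, from -0.46 to 0.53 in oligodendrocyte-like wells and from -2.56 to 0.51 in RGL or astrocyte-like wells. On simulated data these edgeR fits recovered 1, 3 and 0 of 100 genes changed 2-fold. A missing call therefore does not exclude a change of that size.

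Over all wells Rbbp4 had 147.2 ± 10.2 CPM in antagomir mice and 168.4 ± 18.1 CPM in Scr mice, Chd4 97.4 ± 25.05 and 74.4 ± 27.5 CPM, and Mta3 62.8 ± 19.8 and 57.4 ± 24.9 CPM. Mta2 had 76.0 ± 24.4 CPM in antagomir mice and 61.3 ± 19.9 CPM in Scr mice, and Mta1 11.7 ± 7.6 and 5.4 ± 2.5 CPM. Hdac1 had 45.1 ± 9.4 CPM in antagomir mice and 52.0 ± 20.7 CPM in Scr mice, and Hdac2, the other gene with a seed match, 32.2 ± 19.6 and 44.9 ± 20.9 CPM. Mbd3 and Nacc1 had 33.7 ± 31.8 and 13.3 ± 9.0 CPM in antagomir mice and 31.0 ± 18.1 and 11.4 ± 6.5 CPM in Scr mice. The class make-up beside these sums was 39.9 ± 10.5% oligodendrocyte-like and 24.3 ± 8.92% RGL or astrocyte-like wells in antagomir mice, against 44.5 ± 6.97% and 19.0 ± 1.94% in Scr mice, and its part in them was not tested.

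**Figure D4:**
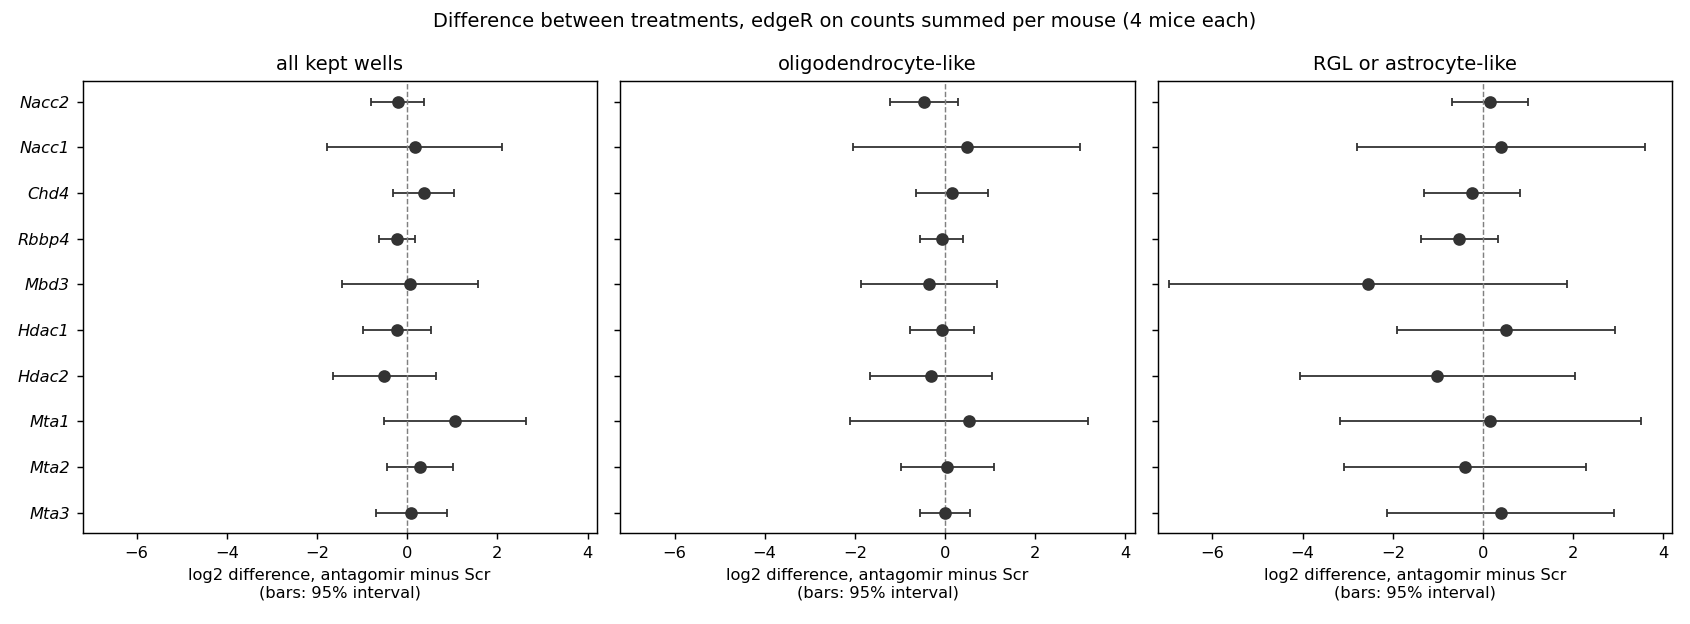
Difference between antagomir and Scr mice (x axis, log2, edgeR, antagomir minus Scr) with its 95% interval for each of the 10 genes (y axis), over all wells, in oligodendrocyte-like wells and in RGL or astrocyte-like wells. Every interval crosses 0. Over all wells the intervals are narrowest for Rbbp4 and Nacc2, and in RGL or astrocyte-like wells the widest is that of Mbd3.

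Within the oligodendrocyte-like class Nacc2 averaged 118.9 ± 56.0 CPM in antagomir mice and 162.4 ± 24.2 CPM in Scr mice, from the values per mouse given with the cell classes. Antagomir mice 4 and 8, both in pool L6, were the lowest of the 8. The edgeR difference was -0.46 (SE 0.34, 95% interval -1.22 to 0.29, unadjusted p = 0.201, adjusted p = 1.00). It was -0.10 in pool L5 and -1.07 in pool L6 (adjusted p = 0.749), and -0.80 and -0.13 on the first and second sort day. With pool as a covariate it was -0.59 (unadjusted p = 0.041, adjusted p = 1.00). Leaving out antagomir mouse 4 gave -0.26 and leaving out antagomir mouse 6 gave -0.76. The share of oligodendrocyte-like wells with Nacc2 was 56.4, 36.0, 62.5 and 45.5% in the antagomir mice 2, 4, 6 and 8, against 71.9, 66.7, 56.1 and 60.5% in the Scr mice 1, 3, 5 and 7. The groups overlapped, and the difference was -13.7 points (exact permutation test over mice, two-sided, p = 0.143).

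In the RGL or astrocyte-like class the direction of the Nacc2 means was the other one, with 155.3 ± 64.0 CPM in antagomir mice and 142.7 ± 32.8 CPM in Scr mice. The edgeR difference was 0.15 (SE 0.38, 95% interval -0.69 to 0.99, unadjusted p = 0.695, adjusted p = 1.00), and it turned to -0.11 without antagomir mouse 8. The share of wells with Nacc2 was 73.3, 51.5, 54.5 and 50.0% in the antagomir mice, against 52.9, 68.8, 58.8 and 57.9% in the Scr mice, a difference of -2.25 points with groups that overlapped (exact permutation test, p = 0.657). The treatment difference of Nacc2 was not shown to differ between the 2 glial classes. The interaction, oligodendrocyte-like minus RGL or astrocyte-like, was -0.70 (edgeR, SE 0.55, 95% interval -1.94 to 0.54, unadjusted p = 0.238, adjusted p = 1.00).

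By share of wells, Rbbp4 in RGL or astrocyte-like wells was the only case without overlap between the treatment groups. It was picked out after all members were compared in each cell set. Rbbp4 was counted in 46.7, 30.3, 40.9 and 25% of these wells in the antagomir mice 2, 4, 6 and 8, against 47.1, 50.0, 58.8 and 47.4% in the Scr mice 1, 3, 5 and 7. Every antagomir mouse lay below every Scr mouse, by less than 1 point between mouse 2 and mouse 1. The means were 35.7 ± 9.85% and 50.8 ± 5.50%, a difference of -15.1 points (exact permutation test over mice, two-sided, p = 0.0286, the smallest that 4 against 4 mice can give; adjusted p = 0.862). Groups did not overlap in this class for 3.31% of 11256 genes, and for 2.95% with antagomir mice the lower ones. No other member separated in this class, over all wells or in oligodendrocyte-like wells, where 1.97% and 2.35% of genes did. Beside these shares of all genes, the separation is not read as an effect on Rbbp4.

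The median number of detected genes in RGL or astrocyte-like wells was also lower in every antagomir mouse (2512.5 to 2982) than in any Scr mouse (3042 to 3238), and the median gene's share of wells was 2.79 points lower. The part of this in the Rbbp4 result was not tested. At 200000 counts per well, which evens counts and not detected genes, the difference in share was -15.5 points (exact permutation test, p = 0.0286). The share of all genes that separated at that depth is not given. By level the groups overlapped, with 87.7 ± 27.1 CPM in antagomir mice and 127.0 ± 40.0 CPM in Scr mice, and a difference of -0.52 (edgeR, SE 0.39, 95% interval -1.38 to 0.33, adjusted p = 1.00). It was -0.64 in pool L5 and -0.41 in pool L6, and 0.15 on the first and -1.14 on the second sort day.

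**Figure D5:**
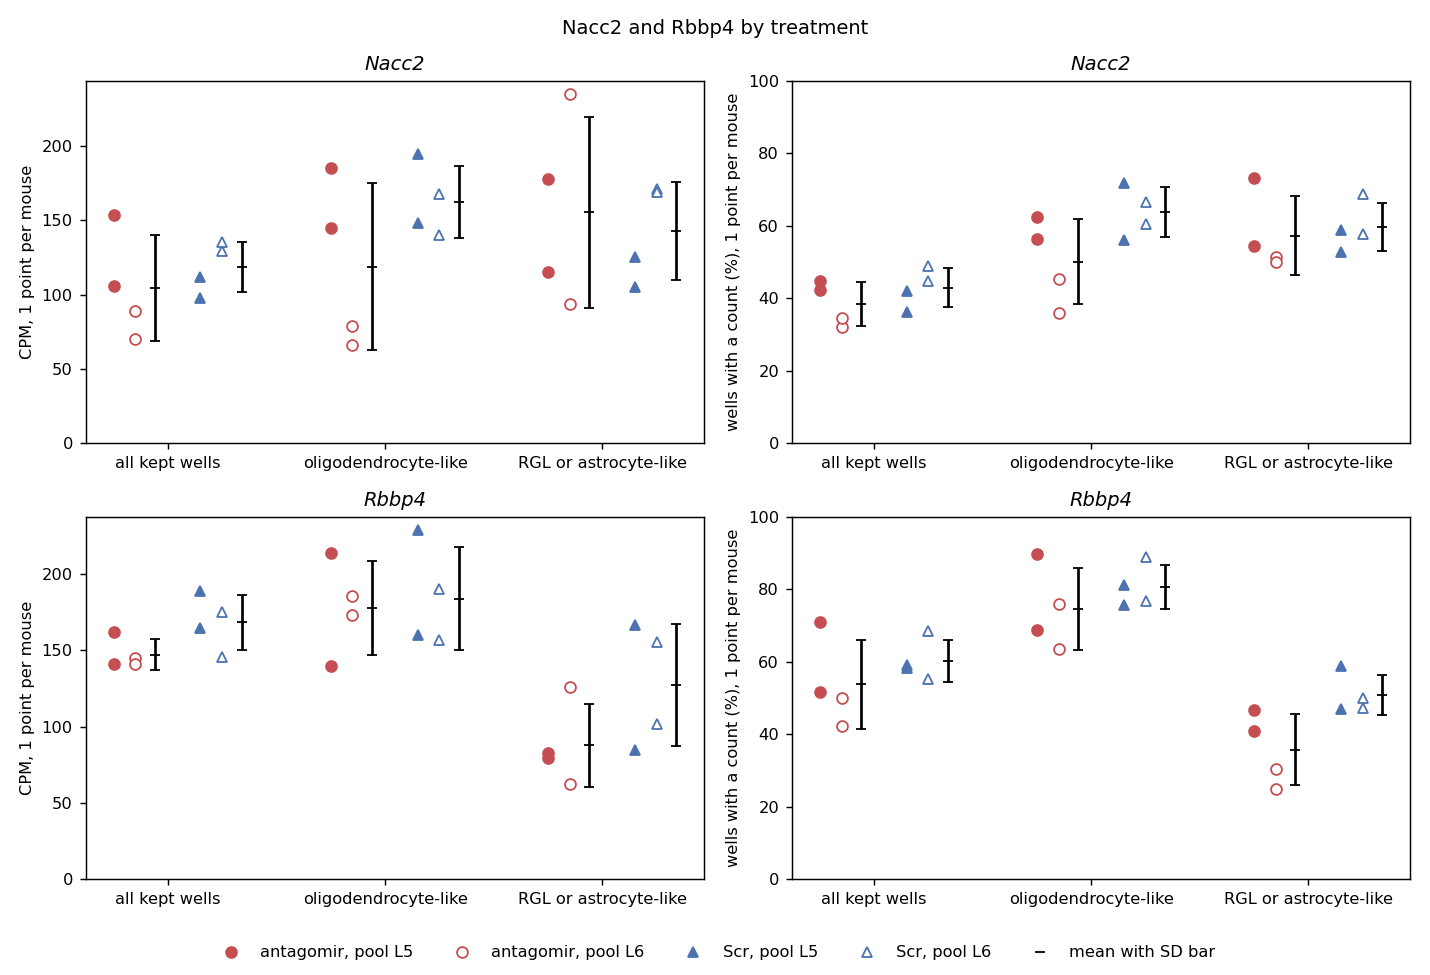
Level in CPM and percent of wells with a count (y axes) of Nacc2 and Rbbp4 per mouse, for antagomir mice on the left and Scr mice on the right of each cell set, with the mean and SD. Filled points are pool L5 and open points pool L6. The groups overlap for Nacc2 in each cell set, while for Rbbp4 in RGL or astrocyte-like wells the antagomir mice reach 46.7% at most and the Scr mice lie at 47.1% or above.

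The lists showed no call under treatment. Over all wells 8 further NuRD subunits, 15 genes of other Hdac1 and Hdac2 complexes, 11 recruiters, 6 genes of the NCoR and HDAC3 complex and 14 genes of the p53 and MDM2 axis were tested, and edgeR called 0 of each, higher or lower. Their medians were -0.21, 0.06, 0.15, 0.26 and 0.10 on the log2 scale, beside 0.00 over all genes. Mdm2, the gene at which human NACC2 acts, differed by -0.44 between antagomir and Scr mice (SE 0.25, unadjusted p = 0.11, adjusted p = 1.00).

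Some of the 10 genes share bases with other genes (GENCODE M21, GRCm38). Nacc2 spans chr2:26055535-26123220 on the minus strand, and 477 of its 7815 exon bases (6.10%) overlap the antisense gene Gm13554. Rbbp4, at chr4:129307100-129335370, shares 782 of its 8744 exon bases (8.94%) with Sync and 796 (9.10%) with Gm26722, both on the opposite strand. Chd4, at chr6:125095981-125130591, contains the 63 bases of Mir7045. With a strand setting not given in the sources used here, reads from these stretches cannot be assigned to 1 gene. Hdac1 lies at chr4:129516104-129542713, Hdac2 at chr10:36974544-37001889, Mbd3 at chr10:80392539-80399550, Mta1 at chr12:113098278-113137206, Mta2 at chr19:8941875-8952303, Mta3 at chr17:83706163-83821516 and Nacc1 at chr8:84670483-84687862.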

How the data were processed

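Cells sorted by flow cytometry for nestin-GFP from 1 whole dentate gyrus per mouse were made into Smart-seq2 libraries from 100 pg of cDNA each with the Nextera XT kit, per the labels' protocols. Unnormalised read counts, with a row per gene symbol and a column per well, are what the authors deposited, with no molecular identifiers. The edgeR intervals take in variation between mice. A limit on the share of wells for a count of 0 covers the sampling of wells only, and the limit of 3 counts covers counting error only. A deposited table of wells gives mouse, treatment, sort day and pool. Per the submitters' processing notes, build mm10 was used with STAR 2.5.2, featureCounts 1.5.1 of Subread, FastQC and Seurat 2.3.1, with annotation release, strand setting and cell limits not given in the sources used here. As the 4 samples of the labels could not be tied to the 8 mice, the mouse was the replicate. Of the well names, 0 occurred more than once. No doublet caller was run.

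Wells under 500 (36) or over 6000 detected genes (16) were left out. Clustering used scanpy 1.11.5 (10000 counts per well, 2000 variable genes, 20 principal components, 15 neighbours, Leiden resolution 1), with the 10 genes and the listed pathway genes left out of it, and a name needed at least 3 markers each detected in at least 25% of a cluster. A cluster of low gene number was left unnamed by a rule set after the data were seen. Counts summed per mouse, or per mouse and class (at least 5 wells; at least 10 for treatment), were fitted over the whole table with edgeR 4.0.16 (filterByExpr, TMM, quasi-likelihood test) in R 4.3.3, with Benjamini-Hochberg adjustment over all genes and a threshold of 0.05. DESeq2 1.42.0 and limma 3.58.1 (on mean log2(CPM + 1) of wells, over genes that passed its filter on low values) were alternatives. CPM were computed from the deposited counts, and levels were compared as log2(CPM + 1) by exact two-sided sign flips over mice. The planned adjustment of these exact tests over the 10 genes was replaced by one over 11256 genes. The edgeR script was also tested on simulated data, with changed genes drawn from those above 20 CPM. Over all wells Nacc1 and Mta1 lay below that level, so the recovery does not cover them. Of 100 genes changed 2-fold, the fit recovered 1 over all wells. It recovered 3 in the oligodendrocyte-like class and 0 in the other glial class. Of 100 genes changed 4-fold, it recovered 51, 39 and 17 in the same order, with 3, 1 and 1 false calls.

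All 10 genes are counted in each comparison, with values for those a result turns on and ranges for the rest. Up to 3 genes of a list are named by smallest p, and the 5 most like Nacc2 by r; Trp53, and Mdm2 in the class contrasts, were named outside this rule after their values were seen. Members and lists were chosen with earlier results of these data known. Each combination of sort day and pool held 1 antagomir and 1 Scr mouse. Their deviations from the group means correlated at -0.01 to 0.147, and the mice were not treated as pairs in the main fits or the exact permutation tests. This correlation is taken over all genes and does not show that a single gene lacks an effect of sort day or pool. Fits of Nacc2 with sort day and pool as a block are given below.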

Additional observations from a re-analysis of the deposited data

Results flagged for a closer look

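In 19 of 90 groups of 4 to 8 mice, 1 mouse lay far from the others (highest or lowest CPM, Dixon's criterion at 95%); chance gives about 1 group in 20. Most rest on few wells with a count. Among all wells, Mta1 was 22.98 CPM in antagomir mouse 4, counted in 9 of 90 wells, against 7.09 to 8.35 CPM in the other antagomir mice. In the oligodendrocyte-like class Hdac1 was 59.3 CPM in antagomir mouse 8 (12 of 44 wells), against 41.6 to 43.3 CPM in the others of its group, and Mbd3 was 8.76 CPM in Scr mouse 7 (1 of 43 wells), against 23.7 to 25.1 CPM. In the RGL or astrocyte-like class Hdac1 was 104.8 CPM in antagomir mouse 8 (6 of 16 wells), against 21.3 to 24.98 CPM, and 94.06 CPM in Scr mouse 5 (3 of 17 wells), against 3.37 to 18.2 CPM.

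In endothelial-like sums, taken over both treatments, antagomir mouse 6 was far above the others for Hdac2 (121.0 CPM, 1 of 11 wells), Mta2 (353.6 CPM, 3 of 11 wells), Mta3 (127.9 CPM, 1 of 11 wells) and Mbd3 (246.0 CPM, 2 of 11 wells). Antagomir mouse 4 was far above the others for Nacc1 (88.8 CPM, 2 of 5 wells) and Mta1 (248.4 CPM, 1 of 5 wells), and Scr mouse 3 for Hdac1 (99.3 CPM, 3 of 13 wells).

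In mural-like sums Nacc2 was 225.8 CPM in antagomir mouse 6 (4 of 15 wells) and Mta1 38.8 CPM in antagomir mouse 2 (2 of 7 wells). Scr mouse 7 stood apart for Nacc1 (92.3 CPM, 1 of 6 wells), Hdac2 (350.3 CPM, 2 of 6 wells) and Mbd3 (354.8 CPM, 2 of 6 wells). In neuroblast-like sums antagomir mouse 2 alone held Nacc2 (20.8 CPM) and Mta3 (96.6 CPM), both in 1 of 6 wells.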

How the results depend on the processing

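The treatment difference of Nacc2 over all wells turned to 0.25 in pool L5 alone and 0.0057 on sort day 2 alone. In RGL or astrocyte-like wells it turned to -0.17 with Leiden resolution 0.5, -0.0071 in pool L6 alone and -0.092 on sort day 1 alone, and leaving out 1 mouse gave -0.11 to 0.35; its share of wells there turned to 0.378 points with at least 5 counts, and to between -7.58 and 0.795 points with 1 mouse left out. The treatment difference of Rbbp4 in that class turned to 0.15 on sort day 1 alone. The causes were not tested.

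Of the 10 genes, DESeq2 and limma called 2 and 3 between oligodendrocyte-like and RGL or astrocyte-like sums, and 2 and 1 between endothelial-like and mural-like sums. Between glial and vascular sums 1 was called with the size factors of DESeq2, with no filter on genes and with at least 10 cells in a sum, 4 by limma (63.6% of genes), and 1 to 2 with 1 mouse left out. Between neuroblast-like and glial sums DESeq2 called 4 (25% of genes) and limma 6 (48.8%), 0 were called with no limit on wells or with Leiden resolution 0.5, and 0 to 2 with 1 mouse left out; a minimum of 10 cells gave no neuroblast-like value. Chd4 turned there to 0.18 with the size factors and 0.18 with the Wald test of DESeq2, 2.34 by limma, 0.023 with 1000 to 6000 genes per well and 0.33 with Leiden resolution 0.5. With 1 mouse left out Chd4 ran from -0.18 to 0.093 and Rbbp4 from -0.092 to 0.27. Level differences between classes gave 0 calls within either pool, where 4 mice cannot pass, and 13 by share of wells.

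Over all genes, DESeq2 called 3875 against 1386 by edgeR between endothelial-like and mural-like sums. Between neuroblast-like and glial sums, edgeR called 370 higher and 886 lower, limma 1602 and 1216, no limit on wells 337 and 362, and Leiden resolution 0.5 620 and 385; DESeq2 called 3423 in all. Between oligodendrocyte-like and RGL or astrocyte-like sums edgeR called 894 higher and 1463 lower, and limma 1442 and 950. In the interaction DESeq2 called 214 genes and edgeR 0. With sort day and pool as a replicate block, Nacc2 differed by -0.26 over all wells, -0.59 in oligodendrocyte-like wells and 0.08 in RGL or astrocyte-like wells, and the block changed no call. Over all 10 genes and comparisons, 95 of 880 values with 1 mouse left out changed sign, 8 lost a call and 1 gained one; of 1262 values under the other alternatives 141 changed sign, 12 lost a call and 31 gained one. Few wells per mouse limit the vascular and neuroblast-like values most.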
